A study of Homo sapiens with 9 samples.

Results

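The effect of a higher dose of 2-deoxy-D-glucose (2-DG) on gene expression was examined by comparing MDA-MB-231 cells kept for 24 h in 20 mM 2-DG with the same cells kept for 24 h in 10 mM 2-DG. The comparison took the 3 libraries labelled with the higher dose and the 3 labelled with the lower dose, 6 of the 9 libraries analysed here. The other 3 libraries were the control, 0 mM 2-DG in phosphate-buffered saline for 24 h, and served to place the step between the doses beside the step from 0 to 10 mM. MDA-MB-231 is an established human line of triple-negative breast cancer (TNBC), so all values describe 1 line in culture. Nothing in the labels ties the replicates to separate cultures, so the p-values measure only the spread between these libraries, which may be technical. Expression was given as FPKM, that is, reads scaled by the length of the gene and by the total of the library. The total counted on genes, recovered from the FPKM values, was 35138071, 40843638 and 34374980 at 10 mM and 30974968, 39780925 and 33060480 at 20 mM, and lay between 34300991 and 36650036 in the control.

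2-DG is a glucose analogue. It enters cells through the glucose transporters and is phosphorylated by hexokinase, but the product cannot pass on through glycolysis. It also resembles mannose, and its entry into growing N-glycans leaves proteins badly folded in the endoplasmic reticulum (ER). A badly folded load in the ER is known to switch on the unfolded protein response (UPR), in which the sensors IRE1, ATF6 and PERK raise chaperones through XBP1 and ATF6 and raise stress and amino acid genes through ATF4. The comparison of the doses asks which of these and other gene groups went further when the dose was raised, and which were already level at 10 mM.

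The step from 10 to 20 mM was small against the step from 0 to 10 mM. Of 16570 genes tested by limma on log2(FPKM + 1), 455 (2.75%) were higher at 20 than at 10 mM at an unadjusted p under 0.05, and 685 (4.13%) were lower. No gene passed a Benjamini-Hochberg adjusted p of 0.05 in either direction (0 genes, 0%), and the smallest adjusted p was 0.11. 0 genes also passed in limma-voom when it was run on reads recovered from the FPKM. From 0 to 10 mM, 2010 genes (12.1%) were higher and 2903 (17.5%) lower at an adjusted p under 0.05. The 1140 genes past the unadjusted threshold between the doses made up 6.88% of those tested, against the 5% that the threshold itself allows. Single genes are therefore given as values and groups by how many members moved one way. Members of a group are read in the same libraries and can move together. A count of members is therefore not a count of independent results. When the libraries were scaled to their upper quartile, 637 genes were higher and 543 lower, so the split between the directions depended on the scaling.

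Most genes were close to level between the doses. The 95% interval of the difference lay within 0.3 of 0 on the log2 scale for 9622 genes (58.1%), and the median interval reached 0.20 to each side. The median difference over all genes was -0.01 for both steps. With an absolute log2 fold change over 1 as a further demand, 1 gene was higher (0.00604%) and 0 lower (0%). This count depends on the pseudocount of 1, since 72 genes met both demands with a pseudocount of 0.1 and 173 in limma-voom on recovered reads. The 1 gene with the pseudocount of 1 was a Y_RNA gene, a small structured RNA, at 0.564, 1.21 and 2.30 FPKM at 10 mM and 2.88, 3.48 and 7.19 FPKM at 20 mM, with only 15 and 47 reads behind the groups.

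Each group is described by the number of its tested members past the unadjusted threshold of 0.05, and by its median log2 difference. Values after ± are standard errors from limma, with 3 libraries in each group. For genes of low FPKM, a difference on the log2(FPKM + 1) scale is smaller than the ratio of the FPKM themselves. Where the steps from 0 to 10 mM and from 10 to 20 mM were compared with each other, the contrast was the second step minus the first, tested by limma with adjustment over all genes. It was positive at an adjusted p under 0.05 for 452 genes (2.73%) and negative for 307 (1.85%). Both steps use the same 10 mM libraries, so an error in their mean moves the steps in opposite directions.

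**Figure D1:**
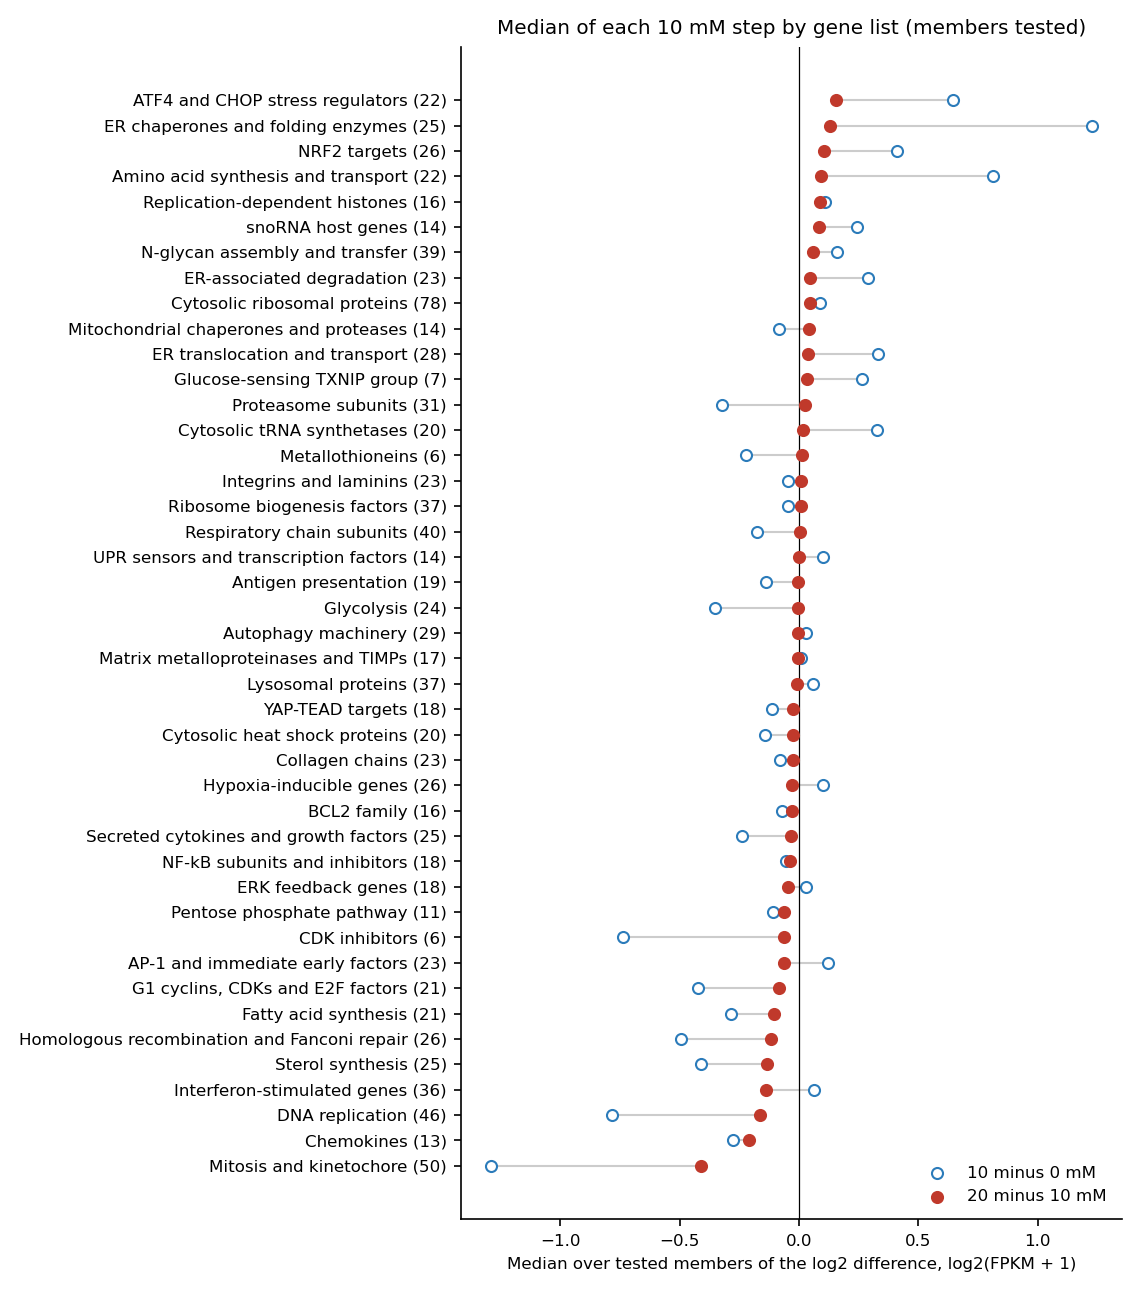
Median log2 difference over the tested members of each gene list (number of members in brackets) for the step from 0 to 10 mM (open circles) and the step from 10 to 20 mM 2-DG (filled circles), on the log2(FPKM + 1) scale. Filled circles lie closer to 0 than open circles for most lists, with mitosis and kinetochore genes lowest at -0.41 and ATF4 and CHOP stress regulators highest at 0.15.

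The genes of mitosis had the lowest median difference of the gene lists. Of 50 genes of the mitotic cyclins, mitotic kinases, spindle checkpoint, kinetochore and spindle motors, all tested, 42 (84%, against 4.13% of all genes) were lower at 20 than at 10 mM and 0 were higher. Their median log2 difference was -0.41, beside -1.29 from 0 to 10 mM. The 3 libraries at 20 mM lay wholly below the 3 at 10 mM for 42 of the 50, against 7.14% of all genes. Fewer cells in mitosis and less of these mRNAs in each cell cannot be told apart in bulk libraries. After each gene was centred on its mean over the 9 libraries, the median of the group ran from -0.35 to -0.15 in the 10 mM libraries and from -0.72 to -0.65 in those at 20 mM. Without 10 mM replicate 3, the library nearest to the control in this group, the median was -0.32, and the number of members lower stayed between 38 and 43 when any library was left out.

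CENPA, the histone H3 variant that marks centromeres, was measured at 4.25, 3.72 and 5.69 FPKM at 10 mM and 2.4, 3.24 and 2 FPKM at 20 mM. All 20 mM libraries were below all 10 mM libraries, and the difference was -0.65 ± 0.15 (adjusted p = 0.309, limma). HJURP, the chaperone that places CENPA, was at 9.65, 9.77 and 13.8 FPKM at 10 mM and 6.82, 7.72 and 6.41 FPKM at 20 mM, a difference of -0.58 ± 0.12. NDC80, the outer kinetochore protein that binds microtubules, stood at 3.3, 4 and 5.02 FPKM at 10 mM and 1.85, 2.8 and 2.49 FPKM at 20 mM, and its difference was -0.59 ± 0.15. The centromere and the outer kinetochore were thus both represented among the genes that were lower.

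PLK1, a kinase of mitotic entry and spindle assembly, had 9.79, 10.2 and 10.3 FPKM at 10 mM and 7.79, 7.17 and 6.25 FPKM at 20 mM. Its 20 mM values did not reach the 10 mM values, with a difference of -0.46 ± 0.08 (adjusted p = 0.134, limma). KIF11, the kinesin that pushes the spindle poles apart, had 5.57, 4.66 and 5.77 FPKM at 10 mM and 3.28, 3.38 and 3.41 FPKM at 20 mM and differed by -0.54 ± 0.11. MKI67, the proliferation antigen Ki-67, had 22.4, 14.6 and 21 FPKM at 10 mM and 12, 13.6 and 13.5 FPKM at 20 mM, and the difference was -0.52 ± 0.14. Among the other members, PBK, a mitotic kinase, differed by -0.63 ± 0.09, CDK1, the kinase that drives mitosis, by -0.49 ± 0.13, TOP2A, which untangles chromosomes, by -0.53 ± 0.14, and the cyclins CCNA2, CCNB2 and CCNB1 by -0.48, -0.36 and -0.29. CEP55, needed for the final cut between daughter cells, and PRR11, a gene that rises in proliferating cells, were not on the list but were among the 12 protein-coding genes with the largest decrease, at -0.54 ± 0.15 and -0.63 ± 0.10.

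The second decrease of these genes was smaller than the first. The contrast of the steps was positive at an adjusted p under 0.05 for 33 of 50 members, against 2.73% of all genes. MYBL2, a transcription factor of the mitotic programme, went from 65, 61.4 and 58.2 FPKM without 2-DG to 15.2, 14.5 and 16.4 at 10 mM and 13.1, 12 and 10.5 at 20 mM. Its steps were -1.94 ± 0.08 and -0.35 ± 0.08, and they differed from each other (limma adjusted p = 0.000909). FAM83D, which brings a kinase to the spindle, had steps of -1.83 ± 0.07 and -0.33 ± 0.07 (limma adjusted p = 0.000674 for their contrast), and KIFC1, a kinesin that clusters spindle poles, had -1.54 ± 0.06 and -0.38 ± 0.06. The other 17 members did not pass the contrast, CENPA among them, with steps of -0.92 ± 0.15 and -0.65 ± 0.15 whose contrast missed the threshold (limma adjusted p = 0.628).

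The 8 members that did not pass between the doses were CENPM, TTK, ECT2, KIF18A, INCENP, BUB3, NUSAP1 and PRC1. BUB3, a spindle checkpoint protein also used outside mitosis, was level at 27.2, 23.5 and 24.6 FPKM at 10 mM and 24.2, 25 and 25.5 FPKM at 20 mM. NUSAP1 and PRC1, both microtubule proteins of the spindle, lay under 0.5 FPKM in every library. In the GENCODE release 29 annotation 72.8% and 65.2% of their exon bases are shared with other genes, and the values of such genes are uncertain. Their part in this low level was not tested.

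**Figure D2:**
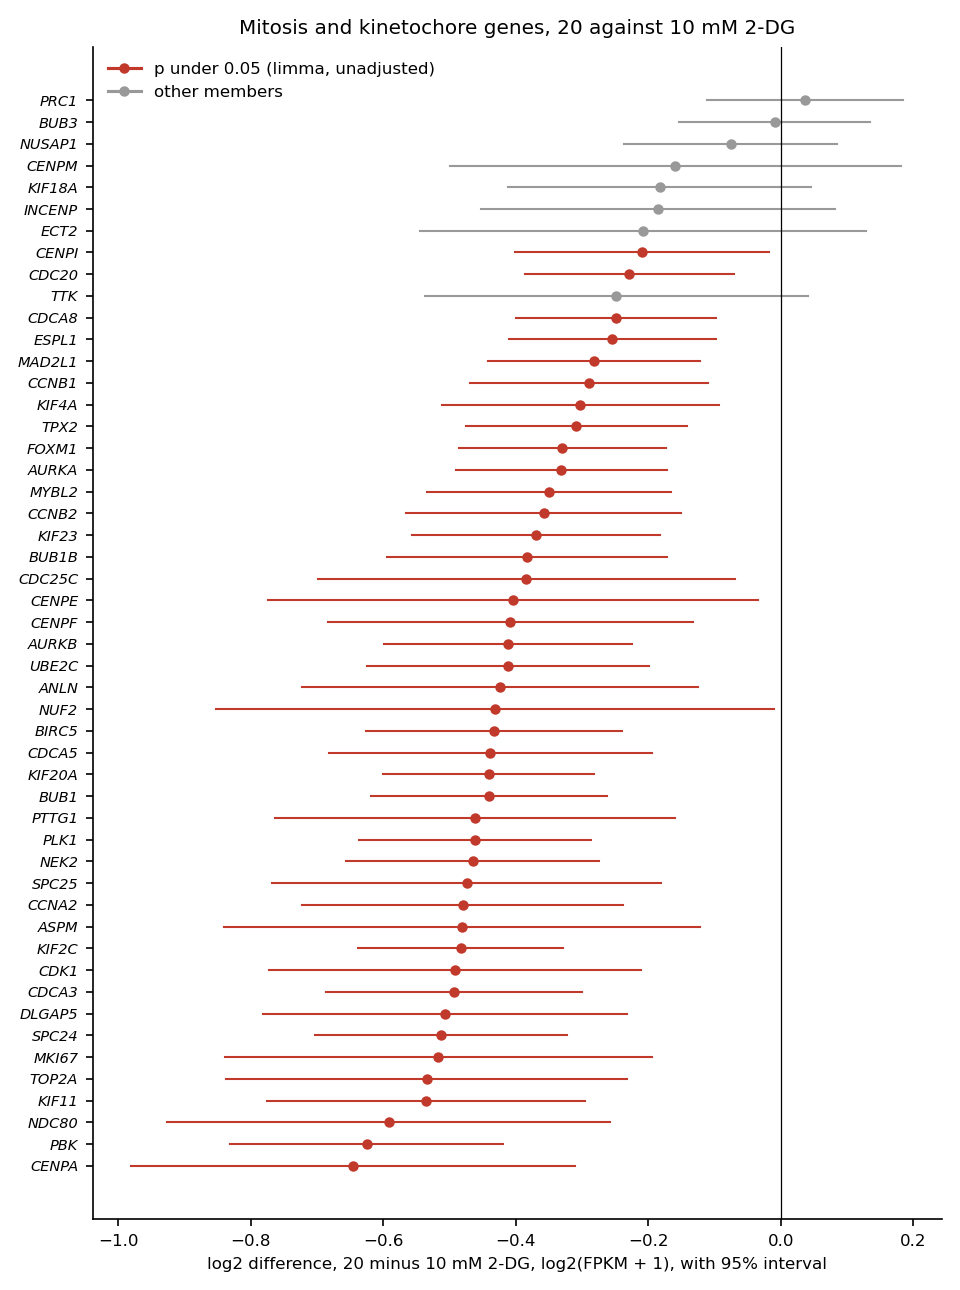
Log2 difference between 20 and 10 mM 2-DG for the 50 mitosis and kinetochore genes, with 95% intervals from limma on log2(FPKM + 1). The 42 genes with an unadjusted p under 0.05 (red) all lie below 0, from -0.21 for CENPI to -0.65 for CENPA, and the 8 others (grey) have intervals that include 0.

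Promoters of mitotic genes often hold a cell cycle homology region (CHR), the letters TTTGAA close to the start, through which the DREAM and MYB-MuvB complexes act. These letters were searched on both strands of the 250 bases before the start in the RefSeq promoter table (GRCh38.p14). They were found for 21 of the 41 mitosis genes with a window, against 13.4% of 34943 windows in the table, 8.46% of 11334 windows of tested genes and 1 of 38 DNA replication genes. The stretches of 4 members are shown because these genes move together and the motif lies at a like distance. This is 29 bases before the start in CCNB2, PLK1 and MKI67 and 18 bases before it in CENPA. The 4 were picked, and in some other members the motif lay further away, 161 bases before the start in CDK1 and 247 in SPC25. MKI67 holds 2 copies, the other 47 bases before the start. The start is that of RefSeq. In GENCODE release 29 all 30 bases shown for CCNB2, PLK1 and CENPA lie in exons of these genes. Capitals mark the motif, and each stretch is 5′ to 3′ on the strand of the gene.
CCNB2, chr15:59105105-59105134, plus strand: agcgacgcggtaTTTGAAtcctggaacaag
PLK1, chr16:23678848-23678877, plus strand: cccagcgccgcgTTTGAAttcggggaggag
CENPA, chr2:26786026-26786055, plus strand: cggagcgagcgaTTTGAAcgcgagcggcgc
MKI67, chr10:128126435-128126464, minus strand: tcttcgttttcgTTTGAAttgggcgggcgc
Of the 21 members with the letters 17 were lower at 20 than at 10 mM (median -0.38), and of the 20 without them 19 were (median -0.44). A match is a description of the window and not evidence of a bound factor.

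The genes of DNA replication were closer to level. Of 46 members tested, 18 (39.1%, against 4.13% of all genes) were lower at 20 mM and 0 higher. The median was -0.16, beside -0.78 in the first step. Without 10 mM replicate 3 or without 20 mM replicate 1, 8 members were lower. PRIM1, the catalytic subunit of primase, was at 1.1, 1.03 and 1.69 FPKM at 10 mM and 0.803, 0.696 and 0.71 FPKM at 20 mM. In the annotation 34.8% of its exon bases are shared with other genes. The lowest 10 mM library was above the highest 20 mM library, with a difference of -0.38 ± 0.12 (adjusted p = 0.493, limma). RRM2, the small subunit of ribonucleotide reductase, had 3.53, 3.11 and 4.4 FPKM at 10 mM and 2.47, 3.07 and 2.41 FPKM at 20 mM, a difference of -0.35 ± 0.11, and TK1, a thymidine kinase, had 26.1, 31.5 and 25.4 FPKM at 10 mM and 22, 22.9 and 20.7 FPKM at 20 mM, a difference of -0.32 ± 0.10. MCM3, a subunit of the replicative helicase, differed by only -0.16 ± 0.07, and MCM2 of the same helicase had a difference of -0.12 ± 0.10 with a 95% interval of -0.34 to 0.10. PCNA, the sliding clamp of the polymerases, differed by -0.18 ± 0.07, and its groups overlapped. In the first step 44 of the 46 genes were lower at an adjusted p under 0.05, against 17.5% of all genes. The contrast of the steps was positive for 23 of the 46, against 2.73% of all genes.

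A minority of repair and G1 genes was lower at 20 mM. Of 26 genes of homologous recombination and the Fanconi pathway, 5 (19.2%, against 4.13% of all genes) were lower and 0 higher. Without overlap between the doses were 9 members lower, against 7.14% of all genes, and 1 higher. The median of the 26 genes was -0.12, beside -0.49 in the first step. Their median was -0.21 with a pseudocount of 0.1 and -0.25 with limma-voom, against -0.20 and -0.19 for the replication genes. EXO1, an exonuclease that trims broken ends, was at 2.09, 2.31 and 2.3 FPKM at 10 mM and 1.28, 1.78 and 1.38 FPKM at 20 mM, a difference of -0.39 ± 0.10 (adjusted p = 0.375, limma). Among 21 G1 cyclins, CDKs and E2F factors, 3 (14.3%) were lower, namely CDC25A, E2F1 and E2F8, and 0 were higher. CDC25A, the phosphatase that frees CDK2, had 4.43, 3.79 and 3.96 FPKM at 10 mM and 2.8, 2.98 and 2.75 FPKM at 20 mM and differed by -0.39 ± 0.08. Of 6 CDK inhibitors tested 1 (16.7%, against 2.75% of all genes) was higher and 2 (33.3%, against 4.13%) were lower. CDKN1A, the p21 protein, was higher at 20 mM (63.5, 68.3 and 58.2 FPKM at 10 mM and 79.6, 71.4 and 68.3 FPKM at 20 mM), by 0.20 ± 0.08, while CDKN2C and CDKN3 were lower, by -0.43 ± 0.10 and -0.29 ± 0.12. The p of CDKN1A passed the threshold of 0.05 in the full fit but not when 10 mM replicate 1 or 3 or 20 mM replicate 1 or 2 was left out.

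Chemokines moved in both directions, and on the log2(FPKM + 1) scale the largest decrease between the doses among the named genes was that of CXCL1. Chemokines are small secreted proteins that draw leukocytes, and CXCL1, CXCL2, CXCL3 and CXCL8 act on neutrophils through the receptor CXCR2. Of 16 chemokines, 13 were tested. At 20 mM 6 (46.2%, against 4.13% of all genes) were lower than at 10 mM and 2 (15.4%, against 2.75%) were higher. The median was -0.21, beside -0.28 in the first step. Without 20 mM replicate 3 the number lower was 3, and without 10 mM replicate 2 the median was -0.13.

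CXCL1 was measured at 70.8, 69.7 and 76.5 FPKM without 2-DG, 16.9, 22.3 and 25.7 FPKM at 10 mM and 11.9, 11.7 and 13.1 FPKM at 20 mM. The groups did not overlap at either step, and the second step was -0.76 ± 0.12 (adjusted p = 0.117, limma) after a first of -1.71 ± 0.12. CXCL2 was at 60.2, 47.5 and 61.3 FPKM without 2-DG, 40.9, 47.1 and 50.8 FPKM at 10 mM and 38.5, 37.1 and 34.4 FPKM at 20 mM, with a second step of -0.32 ± 0.11. CXCL3 went the other way, at 9.06, 7.12 and 8.01 FPKM without 2-DG, 15.4, 15.6 and 14.9 FPKM at 10 mM and 23.1, 19.2 and 16.6 FPKM at 20 mM, and was 0.33 ± 0.11 higher in the second step. CXCL8, or interleukin-8, had 49.8, 39.9 and 48.6 FPKM at 10 mM and 42.2, 34.8 and 35.7 FPKM at 20 mM, and the groups overlapped (-0.29 ± 0.12). Each of CXCL2, CXCL3 and CXCL8 fell short of the threshold when at least 1 of the 6 libraries was left out, CXCL3 without 20 mM replicate 1. CXCL1, CXCL2 and CXCL3 are related neighbours on chromosome 4, and the likeness of their transcripts was not measured here. Reads may have been split between them, so the opposite direction of CXCL3 is uncertain.

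The lesser chemokines were mixed. CXCL10, a ligand of T cells, lay under 1 FPKM, at 0.557, 0.771 and 0.792 FPKM at 10 mM and 0.192, 0.193 and 0.232 FPKM at 20 mM, and was lower by -0.50 ± 0.10 on this scale (adjusted p = 0.187, limma) or by -1.78 as the log2 ratio of mean FPKM. CCL26, an eosinophil attractant, had 8.91, 9.51 and 7.82 FPKM at 10 mM and 6.43, 6.62 and 6.15 FPKM at 20 mM and differed by -0.39 ± 0.09, with a first step of -0.02 ± 0.09. CCL5 lay under 1 FPKM in every library and was 0.27 ± 0.09 higher at 20 mM after a first step of -0.44 ± 0.09.

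The letters GGGNNTTTCC, a form of the site bound by NF-kB, were found in the 250 bases before the start of 4 of 9 chemokine genes with a window, against 1.73% of the 34943 windows. The motif lies 79, 78 and 79 bases before the start of CXCL1, CXCL2 and CXCL3. The stretches are shown because these neighbours hold the same motif. Over 30 bases CXCL1 and CXCL2 match at 29, CXCL2 and CXCL3 at 29 and CXCL1 and CXCL3 at 28. All 30 bases shown for CXCL2 lie in exons of that gene in GENCODE release 29. Capitals mark the motif.
CXCL1, chr4:73869304-73869333, plus strand: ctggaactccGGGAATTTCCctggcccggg
CXCL2, chr4:74099254-74099283, minus strand: ctggagctccGGGAATTTCCctggcccggg
CXCL3, chr4:74038749-74038778, minus strand: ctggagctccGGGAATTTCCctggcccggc
Of the 4 chemokines with the letters 2 were lower and 1 higher at 20 mM, and of the 5 without them 3 were lower and 0 higher.

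**Figure D3:**
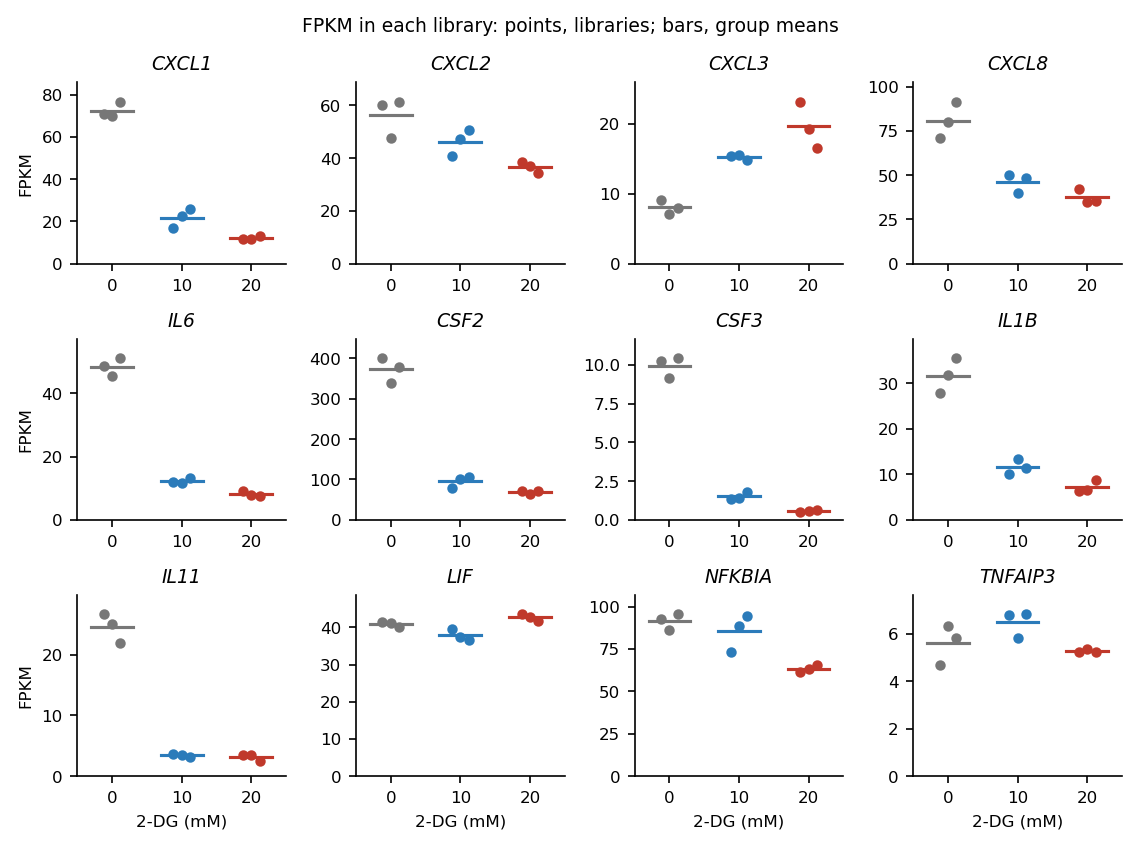
FPKM of 12 chemokine, cytokine and NF-kB genes in each of the 9 libraries against the dose of 2-DG in mM (points, libraries; bars, group means). CXCL1, IL6, CSF2, CSF3 and IL1B drop at 10 mM and again at 20 mM, IL11 lies between 2.56 and 3.66 FPKM at both doses, and CXCL3 is higher at each dose.

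Some secreted cytokines were lower again at the higher dose, and most did not pass the threshold. Of 25 secreted cytokines and growth factors, 7 (28%, against 4.13% of all genes) were lower and 2 (8%, against 2.75%) higher. Their median was -0.03. CSF3, the growth factor of granulocytes, was at 10.2, 9.12 and 10.4 FPKM without 2-DG, 1.37, 1.41 and 1.82 FPKM at 10 mM and 0.494, 0.566 and 0.654 FPKM at 20 mM. The 20 mM libraries were all below the 10 mM libraries, by -0.69 ± 0.10 on the log2(FPKM + 1) scale (adjusted p = 0.11, limma) and by -1.43 as the log2 ratio of mean FPKM. IL6, which signals through gp130 and STAT3, had 48.8, 45.6 and 51.2 FPKM without 2-DG, 11.9, 11.5 and 13.3 FPKM at 10 mM and 9.11, 7.96 and 7.6 FPKM at 20 mM, and its second step was -0.53 ± 0.08 (adjusted p = 0.11, limma). IL1B, the inflammatory interleukin-1 beta, was at 27.8, 31.7 and 35.5 FPKM without 2-DG, 10, 13.3 and 11.3 FPKM at 10 mM and 6.36, 6.63 and 8.68 FPKM at 20 mM, with a second step of -0.61 ± 0.13. CSF2, the granulocyte and macrophage growth factor, was at 400.1, 339 and 377 FPKM without 2-DG, 79.7, 102 and 106 FPKM at 10 mM and 71.7, 63.1 and 70.3 FPKM at 20 mM, with a second step of -0.47 ± 0.11. In each of these 4 genes the 20 mM libraries lay below those at 10 mM without overlap.

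The steps of these cytokines were unequal. For IL6 the first step was -1.90 ± 0.08 and the contrast of the steps passed the threshold (limma adjusted p = 0.00161), as it did for CSF2 (adjusted p = 0.00371) and CSF3 (adjusted p = 0.0029). IL11, a gp130 cytokine like IL6, was at 26.6, 25 and 21.9 FPKM without 2-DG, 3.66, 3.48 and 3.07 FPKM at 10 mM and 3.54, 3.5 and 2.56 FPKM at 20 mM. Its 10 and 20 mM libraries overlapped, its second step was -0.07 ± 0.11 with a 95% interval of -0.33 to 0.18, and the contrast with the first step of -2.53 ± 0.11 was positive (limma adjusted p = 0.000616). LIF, another gp130 cytokine, was at 39.7, 37.4 and 36.7 FPKM at 10 mM and 43.5, 42.8 and 41.8 FPKM at 20 mM and slightly higher at 20 mM, by 0.17 ± 0.05. CSF1, the macrophage growth factor, was among the more abundant cytokines at 178, 181 and 175 FPKM at 10 mM and 143, 146 and 156 FPKM at 20 mM and differed by -0.26 ± 0.06, beside a first step of -0.33 ± 0.06.

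A minority of the NF-kB subunits and inhibitors was lower at 20 mM. Of 18 members, 5 (27.8%, against 4.13% of all genes) were lower and 0 higher, with a median of -0.04. NFKBIA, the inhibitor IkB alpha and itself an NF-kB target, had 73.3, 88.3 and 94.7 FPKM at 10 mM and 61.5, 63 and 65.5 FPKM at 20 mM. Every 20 mM library was below every 10 mM library, by -0.42 ± 0.09 (adjusted p = 0.268, limma), while its first step was only -0.10 ± 0.09. TNFAIP3, the A20 inhibitor, had 6.79, 5.84 and 6.82 FPKM at 10 mM and 5.24, 5.36 and 5.23 FPKM at 20 mM, a difference of -0.25 ± 0.10, and TNIP1, its binding partner, had 104, 109 and 106 FPKM at 10 mM and 94.9, 89.7 and 90.2 FPKM at 20 mM, a difference of -0.21 ± 0.06. The others were BCL3, by -0.24 ± 0.09, and BIRC3, by -0.30 ± 0.12. The subunit genes RELA and NFKB1 differed by 0.02 ± 0.05 and 0.02 ± 0.06, with intervals of -0.09 to 0.14 and -0.12 to 0.16. The number of members lower was 3 when 10 mM replicate 1 or 3 or 20 mM replicate 1 or 3 was left out, and 2 without 20 mM replicate 2. TNFAIP3 passed only while all libraries of both doses other than 10 mM replicate 2 were kept. Median differences of -0.09 and -0.08 were found without 10 mM replicates 1 and 3. The motif GGGNNTTTCC was in the window of 6 of 15 NF-kB list genes and of 2 of 18 cytokine genes.

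Some ER chaperones were higher again at 20 mM, by far less than in the first step. Of 26 chaperones and folding enzymes 25 were tested, 7 (28%, against 2.75% of all genes) were higher at 20 than at 10 mM and 0 lower. The median was 0.13, beside 1.23 in the first step. In that step 21 of the 25 were higher at an adjusted p under 0.05, against 12.1% of all genes. Without overlap between the doses were 9 members higher, against 4.71% of all genes, and 1 lower. The contrast of the steps was negative for 18 of the 25, against 1.85% of all genes.

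HSPA5, the ER chaperone BiP, which also holds the UPR sensors inactive, was at 249, 236 and 251 FPKM without 2-DG, 1054, 990.1 and 1059 FPKM at 10 mM and 1297, 1280.0 and 1268 FPKM at 20 mM. All 20 mM libraries were above all 10 mM libraries, by 0.31 ± 0.07 (adjusted p = 0.316, limma), after a first step of 2.07 ± 0.07 (limma adjusted p = 0.000291 for the contrast). HYOU1, its nucleotide exchange factor, was at 336, 265 and 303 FPKM at 10 mM and 369.9, 356 and 361 FPKM at 20 mM, by 0.27 ± 0.09 higher, and DNAJB9, a co-chaperone of BiP, at 38.2, 32.3 and 36.5 FPKM at 10 mM and 44.7, 42.7 and 41.9 FPKM at 20 mM, by 0.27 ± 0.09 higher. PDIA4, a disulfide isomerase, had 659.8, 656 and 668 FPKM at 10 mM and 773, 757 and 765 FPKM at 20 mM and a difference of 0.21 ± 0.06. These chaperones were thus higher at each dose.

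HSP90B1, the ER form of HSP90, did not pass. It was at 255, 306 and 347 FPKM at 10 mM and 312, 337 and 321 FPKM at 20 mM, with overlapping groups and a difference of 0.10 ± 0.12. CRELD2, an ER protein induced by folding stress, was at 16.7, 19.8 and 18.3 FPKM at 10 mM and 21.3, 21.7 and 21 FPKM at 20 mM, a difference of 0.22 ± 0.10 that missed the threshold although its groups did not overlap. Of the members near the ER membrane, HERPUD1, which recruits badly folded proteins for degradation, was at 30.4, 30.6 and 30.1 FPKM at 10 mM and 38.5, 38.6 and 37 FPKM at 20 mM and differed by 0.31 ± 0.06 (adjusted p = 0.206, limma). It was 1 of 2 of 23 ER-associated degradation genes (8.7%, against 2.75% of all genes) that were higher. The other was SYVN1, the ubiquitin ligase HRD1, by 0.17 ± 0.06. Among ER translocation and transport genes 3 of 28 (10.7%) were higher, led by SRPRB, a subunit of the signal recognition particle receptor. SRPRB was at 15.4, 17 and 14.8 FPKM at 10 mM and 19.2, 19.2 and 19.4 FPKM at 20 mM, a difference of 0.28 ± 0.07. In N-glycan assembly and transfer, 4 of 39 (10.3%) were higher. The 1 lower (2.56%, against 4.13% of all genes) was no excess. The medians of these 3 groups were 0.05, 0.04 and 0.06, and the first of them was 0.024 without 10 mM replicate 2.

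The ER stress element of chaperone promoters, the letters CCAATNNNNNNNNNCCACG, was found in the window of 6 of 23 members, against 0.0744% of the 34943 windows. Stretches of HSPA5 and CRELD2 are shown because they hold the element in opposite orientation. In HSPA5 the element reads along the strand of the gene and in CRELD2 along the other strand. Capitals mark the element.
HSPA5, chr9:125241359-125241428, minus strand: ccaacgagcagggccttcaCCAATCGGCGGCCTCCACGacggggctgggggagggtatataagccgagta
CRELD2, chr22:49918549-49918618, plus strand: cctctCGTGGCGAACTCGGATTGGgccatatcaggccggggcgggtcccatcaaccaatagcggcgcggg
For the 6 members with the element the median was 1.58 in the first step and 0.11 in the second, in which 1 of the 6 was higher. Members without the element numbered 17, with medians of 0.92 and 0.16, and 6 of them were higher in the second step.

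The upstream factors of the UPR changed little between the doses. Of 14 sensors and transcription factors 0 were higher and 1 (7.14%, against 4.13% of all genes) lower, with a median of 0.00. The 1 lower was CREB3L1, which missed the threshold under most alternatives. XBP1, the factor made active by IRE1, was at 28.1, 28 and 31.2 FPKM without 2-DG, 52.8, 57 and 51.3 FPKM at 10 mM and 52.8, 53.8 and 52.3 FPKM at 20 mM. It had already reached its 20 mM level at 10 mM, with a second step of -0.02 ± 0.06, a 95% interval of -0.16 to 0.12 and a contrast of the steps past the threshold (limma adjusted p = 0.0029). ATF4 was at 206, 247 and 228 FPKM at 10 mM and 232, 228 and 223 FPKM at 20 mM, and its second step was 0.0071 ± 0.07 with an interval of -0.16 to 0.17. FPKM of a gene counts all its transcripts, so the spliced form of XBP1 and the translation of ATF4 were not measured here.

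Some targets of ATF4 and CHOP were higher again at 20 mM. Of 23 stress regulators 22 were tested, 7 (31.8%, against 2.75% of all genes) were higher at 20 mM and 0 lower. The median was 0.15, beside 0.65 in the first step. SESN2, a sestrin that restrains mTORC1, was at 17.1, 17.5 and 15.3 FPKM at 10 mM and 22.4, 23 and 20.1 FPKM at 20 mM. The groups did not overlap and the difference was 0.37 ± 0.09 (adjusted p = 0.349, limma). TRIB3, a pseudokinase induced by CHOP, had 92.5, 101 and 88.7 FPKM at 10 mM and 115, 117 and 111 FPKM at 20 mM, a difference of 0.28 ± 0.09, and CEBPG, a partner of ATF4, had 26.4, 27.6 and 26.4 FPKM at 10 mM and 31, 31.1 and 29.5 FPKM at 20 mM, a difference of 0.18 ± 0.05. DDIT3, which encodes CHOP, had 56.2, 77 and 59 FPKM at 10 mM and 78.5, 78.5 and 74.4 FPKM at 20 mM with overlapping groups, a difference of 0.28 ± 0.12. Its p missed the threshold when any library of either dose other than 10 mM replicate 2 was left out, without control replicate 3, without the filter on low genes and with median-ratio scaling. The number of members higher was 3 without 10 mM replicate 3 and 4 without 20 mM replicate 2.

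Of 24 genes of amino acid synthesis and transport 22 were tested and 3 (13.6%, against 2.75% of all genes) were higher, all of them carriers. SLC3A2, the heavy chain of several amino acid exchangers, was at 111, 109 and 103 FPKM without 2-DG, 369.7, 405 and 327 FPKM at 10 mM and 470.0, 449 and 434 FPKM at 20 mM, and its second step was 0.30 ± 0.08 (adjusted p = 0.416, limma). The others were SLC7A5, a leucine carrier, by 0.20 ± 0.07, and SLC1A5, a glutamine carrier, by 0.18 ± 0.07, and both fell short of the threshold without 10 mM replicate 3, among other libraries. PSAT1, an enzyme of serine synthesis, was at 40.9, 37.5 and 40 FPKM without 2-DG, 111, 112 and 117 FPKM at 10 mM and 109, 117 and 118 FPKM at 20 mM. It was level between the doses, with a second step of 0.01 ± 0.06, a 95% interval of -0.11 to 0.14 and a contrast of the steps of -1.48 (limma adjusted p = 0.000209). PHGDH, the first enzyme of the same route, had 5.07, 6.41 and 5.4 FPKM at 10 mM and 5.32, 5.88 and 5.44 FPKM at 20 mM and a second step of -0.01 ± 0.11. SHMT2, which makes glycine from serine in mitochondria, differed by 0.10 ± 0.06 after a first step of 1.15 ± 0.06. ASNS, asparagine synthetase, is left without a reading because 79.7% of its exon bases are shared with other genes in the annotation and its values lay at or under 1.49 FPKM.

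The cytosolic tRNA synthetases, several of which ATF4 is known to raise, stayed close to their 10 mM level. Of 20 members 0 were higher and 0 lower, and for 19 the 95% interval lay within 0.3 of 0, against 58.1% of all genes. In the first step, with a median of 0.33, 12 had been higher at an adjusted p under 0.05, against 12.1% of all genes. The contrast of the steps was negative for 6 of the 20, against 1.85% of all genes. WARS1, for tryptophan, was at 42.8, 41.9 and 40.9 FPKM without 2-DG, 102, 93.7 and 94.6 FPKM at 10 mM and 104, 101 and 101 FPKM at 20 mM, with a second step of 0.08 ± 0.05 and an interval of -0.04 to 0.19. AARS1, for alanine, was at 38, 35.8 and 33.2 FPKM at 10 mM and 38.6, 37 and 38.5 FPKM at 20 mM, with a second step of 0.09 ± 0.06. MARS1, for methionine, had a second step of 0.07 ± 0.06 after a first of 0.44 ± 0.06.

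**Figure D4:**
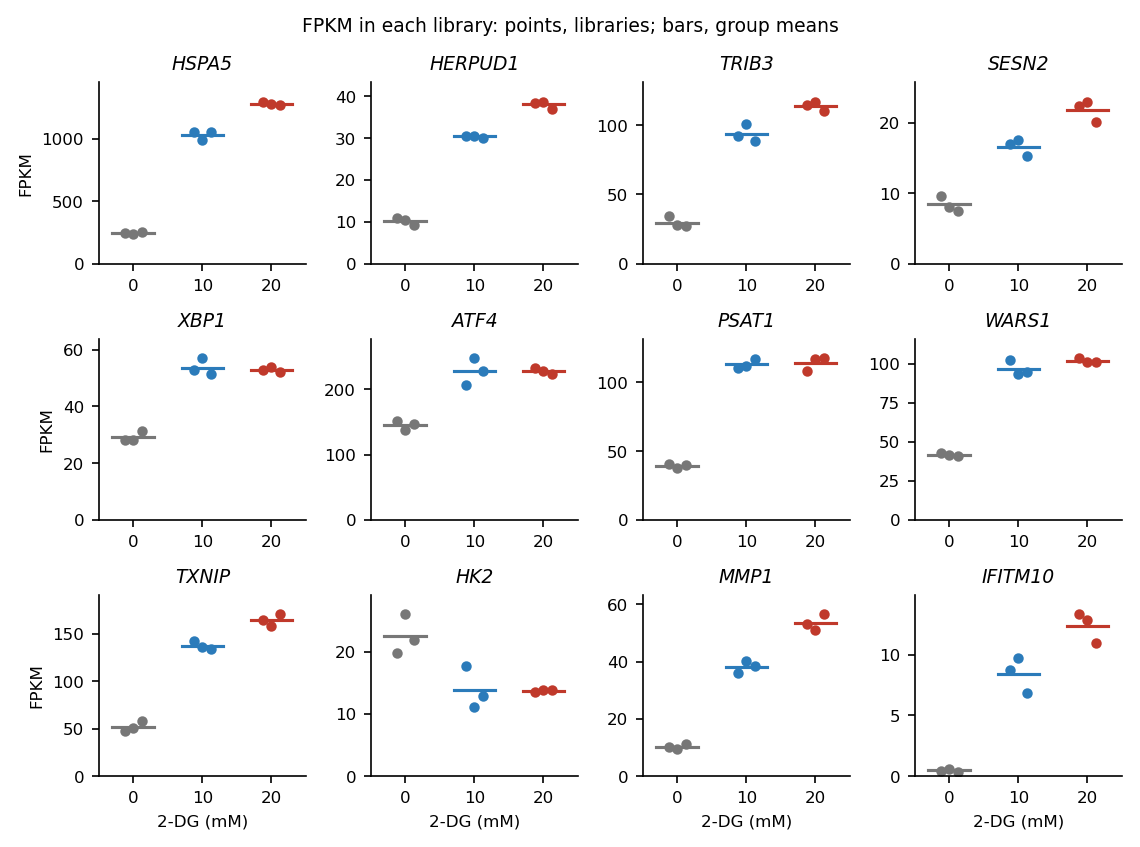
FPKM of 12 ER stress, amino acid response, glucose and secreted protein genes in each of the 9 libraries against the dose of 2-DG in mM (points, libraries; bars, group means). HSPA5, HERPUD1, TRIB3, SESN2, TXNIP, MMP1 and IFITM10 are higher at 20 than at 10 mM with no overlap, while XBP1, ATF4, PSAT1, WARS1 and HK2 overlap between the doses.

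Some interferon-stimulated genes were lower at 20 than at 10 mM, and a few of these had been higher at 10 mM than without 2-DG. These genes are induced by interferons through a STAT complex with IRF9 and limit viruses. Of 36 members tested, 11 (30.6%, against 4.13% of all genes) were lower at 20 than at 10 mM and 0 higher, with a median of -0.14. In the first step 12 had been higher and 6 lower at an adjusted p under 0.05 (median 0.06). Among all genes 12.1% were higher and 17.5% lower in that step, so the 6 lower were no excess. The contrast of the steps was negative for 9 members, against 1.85% of all genes, and positive for 1, against 2.73%. Without 10 mM replicate 3 and without 20 mM replicate 1 the number lower was 7 and 6.

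IFIT1, which binds foreign RNA caps, was at 27, 25.7 and 29.4 FPKM without 2-DG, 35, 38.3 and 41.6 FPKM at 10 mM and 24.7, 29 and 26.8 FPKM at 20 mM. The 10 mM libraries were above all others, and the steps were 0.47 ± 0.08 and -0.50 ± 0.08 (adjusted p = 0.123, limma), with a contrast past the threshold (limma adjusted p = 0.00699). IFIT3, its binding partner, was at 53.7, 47.2 and 52.4 FPKM without 2-DG, 67.7, 71.2 and 77.1 FPKM at 10 mM and 55.3, 57.1 and 55.3 FPKM at 20 mM, with steps of 0.49 ± 0.07 and -0.36 ± 0.07. IFIT2, of the same family, was at 24.3, 26 and 27.9 FPKM without 2-DG, 41.9, 36.6 and 43.6 FPKM at 10 mM and 28, 32.5 and 35.5 FPKM at 20 mM, with steps of 0.62 ± 0.10 and -0.34 ± 0.10. HERC5, the ligase that attaches ISG15, was at 10.1, 9.97 and 11.6 FPKM without 2-DG, 16.1, 15.2 and 16.5 FPKM at 10 mM and 11.2, 13.3 and 13.1 FPKM at 20 mM, with steps of 0.55 ± 0.08 and -0.33 ± 0.08. For IFIT1 and IFIT3 the 20 mM level was thus close to that without 2-DG.

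Other members had different patterns. IFIH1, the RNA sensor MDA5, was at 4.16, 4.93 and 4.58 FPKM without 2-DG, 9.08, 8.85 and 9.97 FPKM at 10 mM and 7.49, 7.68 and 8.18 FPKM at 20 mM and stayed above the control at 20 mM, with steps of 0.89 ± 0.08 and -0.23 ± 0.08. IFITM1, a membrane protein that blocks viral entry, was lower at each step, by -0.72 ± 0.10 and -0.23 ± 0.10. ISG15, a ubiquitin-like protein, did not pass, at 415, 547 and 391 FPKM at 10 mM and 390.1, 409 and 344 FPKM at 20 mM (-0.23 ± 0.14). Among 19 antigen presentation genes 0 were higher and 0 lower, with a median of 0.00.

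The letters GAAANNGAAA, the core of the interferon-stimulated response element, were found in the window of 15 of 27 members, against 3.02% of the 34943 windows. IFIT1 and IFIT3, both on chromosome 10, are shown because their steps had opposite signs. Each stretch holds the element at 2 places, read along the other strand and marked by capitals.
IFIT1, chr10:89392483-89392532, plus strand: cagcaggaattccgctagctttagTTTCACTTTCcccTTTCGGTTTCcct
IFIT3, chr10:89327837-89327886, plus strand: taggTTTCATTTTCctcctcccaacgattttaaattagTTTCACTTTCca
The median second step was -0.21 for the 15 members with the letters, of which 6 were lower, and -0.07 for the 12 without them, of which 2 were lower.

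**Figure D5:**
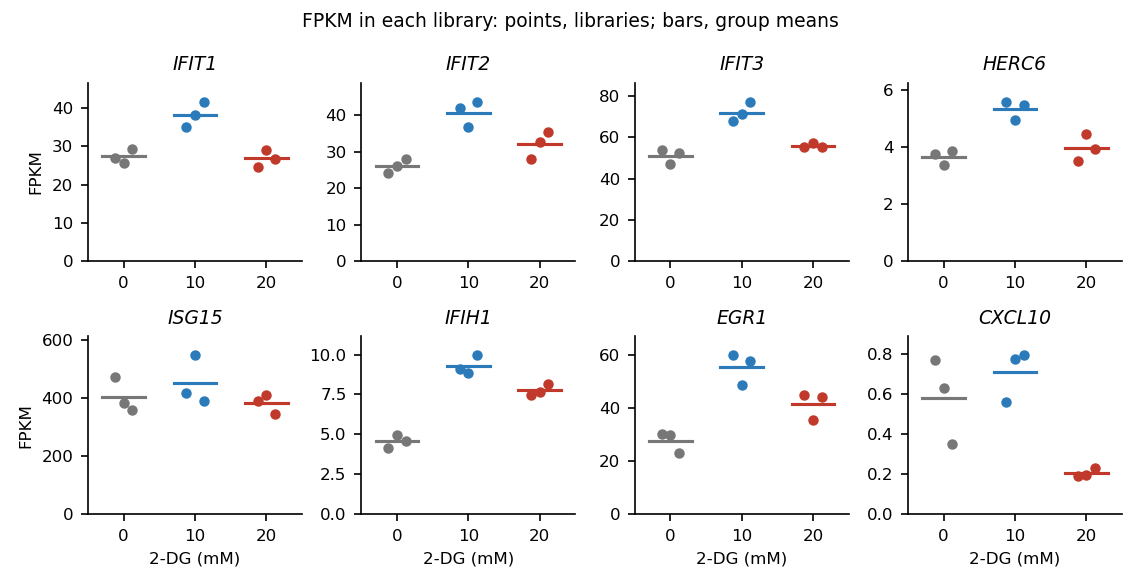
FPKM of 6 interferon-stimulated genes, the immediate early gene EGR1 and the chemokine CXCL10 in each of the 9 libraries against the dose of 2-DG in mM (points, libraries; bars, group means). IFIT1, IFIT2, IFIT3, HERC6 and EGR1 are highest at 10 mM, and their 20 mM libraries lie below all 10 mM libraries.

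Sterol synthesis genes, which SREBP2 controls, went on decreasing in part. Of 25 members 5 (20%, against 4.13% of all genes) were lower at 20 mM and 0 higher (median -0.13, beside -0.41 in the first step). The number lower was 9 without 10 mM replicate 1 and 3 without 20 mM replicate 1. INSIG1, which holds SREBP in the ER, was at 22.4, 20.4 and 22.5 FPKM at 10 mM and 16.2, 16.1 and 17.6 FPKM at 20 mM, a difference of -0.37 ± 0.07 (adjusted p = 0.146, limma), and IDI1, an isomerase of the isoprenoid route, was at 11.9, 13.7 and 14.5 FPKM at 10 mM and 10.4, 11 and 9.4 FPKM at 20 mM, a difference of -0.36 ± 0.08. In fatty acid synthesis 3 of 21 (14.3%) were lower and 0 higher, led by SCD5, a desaturase, by -0.25 ± 0.09. FASN, the fatty acid synthase, was level at 87.5, 69.3 and 66.6 FPKM at 10 mM and 70.9, 69.3 and 76.5 FPKM at 20 mM after a first step of -0.55 ± 0.11.

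Glycolysis, the pathway that 2-DG blocks, moved little between the doses. Of 24 members 1 (4.17%, against 2.75% of all genes) was higher, HK1 by 0.13 ± 0.05, and 0 were lower. The median was 0.00, beside -0.35 in the first step. The interval lay within 0.3 of 0 for 19 (79.2%, against 58.1% of all genes). The contrast of the steps passed the adjusted threshold for only 1 member, as negative, so most members were not shown to differ between the steps. HK2, the hexokinase that phosphorylates 2-DG, was at 19.8, 26 and 21.9 FPKM without 2-DG, 17.7, 11.1 and 12.8 FPKM at 10 mM and 13.4, 13.8 and 13.8 FPKM at 20 mM. The 10 mM libraries were spread and overlapped with those at 20 mM, with a second step of 0.008 ± 0.15 and an interval of -0.32 to 0.33. SLC2A1, the main glucose transporter GLUT1, was at 78, 70.3 and 62.6 FPKM at 10 mM and 75.8, 71.7 and 72.7 FPKM at 20 mM (0.07 ± 0.09). LDHA, which makes lactate, was at 276, 306 and 289 FPKM at 10 mM and 275, 274 and 268 FPKM at 20 mM, a difference of -0.09 ± 0.06 that missed the threshold (adjusted p = 0.892, limma) with an interval of -0.23 to 0.05. Its first step had been -0.38 ± 0.06.

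In the glucose sensor arm, by contrast, TXNIP and ARRDC4 were higher again at 20 mM. TXNIP, an arrestin that MondoA induces when phosphorylated sugars build up, was at 47.9, 50.4 and 58 FPKM without 2-DG, 142, 136 and 134 FPKM at 10 mM and 165, 159 and 171 FPKM at 20 mM, and its second step was 0.26 ± 0.07 (adjusted p = 0.424, limma). ARRDC4, a related arrestin under the same control, was at 0.215, 0.275 and 0.423 FPKM without 2-DG, 2.34, 1.85 and 2.24 FPKM at 10 mM and 3.09, 2.77 and 3.12 FPKM at 20 mM, with a second step of 0.35 ± 0.10. These were the 2 of 7 members of the group (28.6%, against 2.75% of all genes) that were higher. The group median was 0.03, or 0.14 without 10 mM replicate 1. Of 11 pentose phosphate genes and 40 respiratory chain subunits 0 were higher and 0 lower. Of 31 proteasome subunits 1 (3.23%, against 2.75% of all genes) was higher and 0 lower. For 26 (83.9%, against 58.1% of all genes) the interval lay within 0.3 of 0. In the first step 22 had been lower at an adjusted p under 0.05, against 17.5% of all genes. The contrast of the steps was positive for 4 of the 31, against 2.73% of all genes. The proteasome median was 0.02, or 0.10 without 10 mM replicate 2.

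A minority of the antioxidant targets of NRF2 was higher at 20 mM. Of 26 members 3 (11.5%, against 2.75% of all genes) were higher and 0 lower (median 0.11, beside 0.41). SRXN1, sulfiredoxin, was at 7.17, 5 and 5.1 FPKM at 10 mM and 9.39, 7.25 and 7.33 FPKM at 20 mM, a difference of 0.42 ± 0.17, and it fell short of the threshold without 10 mM replicate 2 or 3 or 20 mM replicate 1. Of its exon bases 84.95% are shared with other genes in the annotation, so its values are uncertain. The others were AKR1B10, an aldo-keto reductase, by 0.29 ± 0.12, and OSGIN1, by 0.22 ± 0.10. HMOX1, heme oxygenase, did not pass, at 34.2, 32.4 and 27.6 FPKM at 10 mM and 40.4, 32.4 and 31.3 FPKM at 20 mM, with a difference of 0.14 ± 0.11 after a first step of 0.99 ± 0.11.

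The genes with the largest increases at 20 mM had varied roles. MMP1, the interstitial collagenase, was at 10.1, 9.5 and 11.3 FPKM without 2-DG, 36.1, 40.3 and 38.4 FPKM at 10 mM and 53, 51.2 and 56.5 FPKM at 20 mM. It rose at both steps without overlap, by 0.48 ± 0.07 in the second (adjusted p = 0.11, limma), and its contrast of the steps was negative (limma adjusted p = 0.00116). TNC, the matrix protein tenascin C, was at 15.5, 11 and 11 FPKM at 10 mM and 18.3, 16.8 and 18.3 FPKM at 20 mM, a difference of 0.50 ± 0.13. IFITM10, of the interferon-induced transmembrane family, was at 0.417, 0.621 and 0.353 FPKM without 2-DG, 8.72, 9.76 and 6.85 FPKM at 10 mM and 13.3, 12.9 and 11 FPKM at 20 mM, and its second step was 0.51 ± 0.13 after a first of 2.68 ± 0.13. METRNL, a secreted hormone-like protein, had 6.14, 7.92 and 5.45 FPKM at 10 mM and 8.99, 8.82 and 9.13 FPKM at 20 mM and differed by 0.42 ± 0.12 after a first step of 0.18 ± 0.12. The other genes named by the rule for the largest increases were EMC6 (0.55 ± 0.16), SESN2, ARRDC4, SRXN1, the trypsin PRSS3 (0.35 ± 0.12), the trypsin inhibitor SPINK1 (0.35 ± 0.12), the receptor GPRC5D (0.33 ± 0.12) and the histone H4 gene H4C8 (0.34 ± 0.15). EMC6, a subunit of the ER membrane insertase, shares 74.3% of its exon bases with other genes. Each of PRSS3, SPINK1, GPRC5D and H4C8 fell short of the threshold without 10 mM replicate 3. Of 17 matrix metalloproteinases and TIMPs 2 (11.8%, against 2.75% of all genes) were higher and 2 (11.8%, against 4.13%) lower. Their median was 0.00.

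Several transcription factors were lower at 20 mM. ID3, an inhibitor of basic helix-loop-helix factors, was at 14.3, 14.6 and 11.7 FPKM without 2-DG, 11.8, 13.1 and 13.2 FPKM at 10 mM and 7.75, 9.22 and 6.91 FPKM at 20 mM. Its steps were -0.08 ± 0.11 and -0.62 ± 0.11 (adjusted p = 0.15, limma). HES1, the repressor downstream of Notch, was at 21.7, 15.9 and 15.9 FPKM without 2-DG, 12.4, 15.6 and 14.3 FPKM at 10 mM and 8.84, 9.21 and 9.25 FPKM at 20 mM, with a second step of -0.58 ± 0.12. CEBPD, a factor of the acute phase response, was at 35.8, 32.5 and 39.7 FPKM without 2-DG, 14.5, 20.6 and 18.6 FPKM at 10 mM and 12.8, 10.4 and 12.3 FPKM at 20 mM, and its second step was -0.55 ± 0.13 after a first of -0.98 ± 0.13. EGR1, an immediate early factor, turned back like the IFIT genes, at 30.3, 29.8 and 23.1 FPKM without 2-DG, 60, 48.6 and 57.6 FPKM at 10 mM and 44.8, 35.7 and 44.2 FPKM at 20 mM, with steps of 0.98 ± 0.13 and -0.41 ± 0.13 (limma adjusted p = 0.00844 for the contrast). MYC was slightly higher at each dose, at 52.6, 51.7 and 49.1 FPKM at 10 mM and 59.2, 57.2 and 56.9 FPKM at 20 mM, by 0.17 ± 0.05 in the second step. Of 23 AP-1 and immediate early factors 2 (8.7%, against 2.75% of all genes) were higher and 2 (8.7%, against 4.13%) lower. C15orf48, a mitochondrial protein gene that inflammation induces, was also among the largest decreases, at 4.24, 6.04 and 6.48 FPKM at 10 mM and 3.12, 2.75 and 4.04 FPKM at 20 mM, a difference of -0.61 ± 0.17.

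Markers of the line, of other cell types and of RNA quality were read in the same libraries. Of 10 markers of mesenchymal breast cancer lines 9 were above 1 FPKM in all 9 libraries, with VIM, of whose exon bases 52.6% are shared with other genes, between 242.7 and 313 FPKM, and SPARC was at most 0.215 FPKM. Their summed level was 1570 to 1820 FPKM at 10 mM and 1627 to 1647 FPKM at 20 mM, with 0 of 10 past the threshold. Of the luminal markers, 6 of 10 were above 1 FPKM in all libraries, led by KRT19 and AGR2, with ESR1, PGR, FOXA1 and CDH1 at or near 0. Leukocyte markers summed to 1.76 to 2.87 FPKM at 10 mM and 1.19 to 1.95 FPKM at 20 mM, nearly all of it CD14, with PTPRC and CD3E at or near 0. Fibroblast markers summed to 1.27 to 1.33 and 1.27 to 1.71 FPKM, and endothelial markers to 1.61 to 1.88 and 1.37 to 1.47 FPKM. Mitochondrial mRNAs made up 6.85%, 7.43% and 8.69% of reads at 10 mM and 6.84% to 7.12% at 20 mM. The median difference of the 13 mitochondrial mRNAs was -0.14, with 12 negative and 0 past the threshold, as large as the median of the interferon-stimulated genes. RN7SL1, a small structured RNA, was at 114, 59.9 and 30.6 FPKM at 10 mM and 53.4, 39.2 and 39.5 FPKM at 20 mM, with overlapping groups and a difference of -0.44 ± 0.38 (95% interval -1.29 to 0.41). The part of either in the gene list results was not tested. The 10 mM replicates were the least alike, with Pearson correlations of log2(FPKM + 1) of 0.989 to 0.994 across genes against 0.996 for each pair at 20 mM.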

How the data were processed

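RNA from MDA-MB-231 cells was extracted with a Qiagen kit and sequenced on an Illumina NovaSeq instrument, per the labels and the methods of the study. The authors deposited FPKM values, in a separate file for each library. Each file lists 61552 genes, and 20495 of these are without a name. The labels name the builds GRCh38 and hg38. The aligner, the counting tool and the annotation release are not given in the sources used here. The FPKM of the 20 mM libraries were written with more decimals than the others. The lactate-treated libraries are not analysed here.

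Whole reads were recovered from the deposited FPKM: 1 gene length made all 9 values whole, within 0.02 reads, for 32806 of 32806 genes above 0. It was the GENCODE release 29 exon length for 16945 genes and the smallest length found by a search for 15861. The recovered reads made up 99.8% to 99.9% of each total. They served only the filter and limma-voom. The filter asked for at least 10 reads, set to the median depth, in 3 libraries and for 15 reads summed. It was met by 16570 genes, of which 5136 had the annotated length. For the others a searched length may be too short and the reads too few. limma 3.58.1 in R 4.3.3 was fitted to log2(FPKM + 1) of all 9 libraries with a variance trend and no replicate block, adjusted by the Benjamini-Hochberg method. DEGs here had an unadjusted p below 0.05 in limma and a log2 fold change beyond 1 in either direction. The study's methods give the same thresholds for DESeq2, a tool for counts, and do not say whether p was adjusted. The recovery of reads and the fit were each tried on simulated reads. For the fit, genes were drawn independently with a fixed spread, and some were changed between the doses. Shifts of a whole library were not simulated, so this is no check of the dose results. No replicates were identical, and all differed beyond sampling noise.

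The comparison, the gene lists and the alternatives were chosen with earlier results of these data known, so they are not independent of them. Named genes were, per direction, the 12 protein-coding genes with the largest difference among those with an unadjusted p under 0.05, a mean of at least 2 FPKM over the 6 libraries and no overlap. Also named were genes marked in the lists, up to 4 members per list and, per direction, the 5 genes with the smallest p in the contrast of the steps. Some genes that these rules name are not reported here. Other members past the threshold were named after their values were seen. Promoter stretches are from RefSeq (GRCh38.p14), and shared exon bases from GENCODE release 29. Shared bases were pointed out for some genes only. Other named genes hold them too, among them SQSTM1 (39.8%), MCM2 (32.0%), IFITM10 (28.7%), RRM2 (27.9%) and IL6 (25.0%). Alternatives were other scalings, filters and pseudocounts, the 6 libraries alone, limma-voom, a replicate block and each library left out.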

Additional observations from a re-analysis of the deposited data

How the results depend on the processing

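Counts of genes between the doses and several list medians depended on the processing. For the 455 genes higher at 20 mM, no filter on low genes gave 767 and a stricter filter (mean FPKM of at least 1) 260, and leaving out single libraries gave 276 to 808: 808 and 790 without 10 mM replicates 1 and 2, 276 without 10 mM replicate 3 and 303 without 20 mM replicate 1. For the 685 lower the range was 476 to 1015. An adjusted p under 0.05 gave 0 higher and 0 lower, although without the filter 3 genes passed as lower and without 10 mM replicate 1, 1 as higher and 3 as lower. The 1 DEG became 72 with a pseudocount of 0.1, 6 with no filter, 3 with the stricter filter, 173 with limma-voom and 33 at a 1.5-fold threshold, and 1 to 5 with a library left out. The contrast of the steps, positive for 452 genes and negative for 307, gave 232 and 170 with no filter, and 195 to 592 and 154 to 299 with a library left out. The lowest of these came without 10 mM replicate 3, and without the 20 mM replicates 1, 2 and 3 in turn the positive number was 239, 211 and 246 and the negative 176, 171 and 171. Without control replicate 2 the positive number was 298. The cause of these shifts was not tested.

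With the replicate block 428 genes were higher and 679 lower, and the contrast of the steps was positive for 236 and negative for 186. Same-numbered deviations from the group means correlated across genes at -0.07, 0.21 and 0.00 between 10 and 20 mM. They correlated at -0.51, -0.54 and 0.44 between 0 and 10 mM, and at 0.21, -0.16 and 0.05 between 0 and 20 mM. Deviations within a group sum to 0 and can follow library-wide shifts. These values therefore cannot settle whether the replicate numbers mark pairs.

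Medians that moved beyond the spread between replicates were those of repair genes (-0.21 with a pseudocount of 0.1, -0.25 with limma-voom), chemokines (-0.33 with a pseudocount of 0.1, -0.30 with the stricter filter, -0.33 with limma-voom), interferon-stimulated genes (-0.18 with the stricter filter) and N-glycan genes (0.073 with a pseudocount of 0.1, 0.075 with median-ratio scaling, 0.085 with upper-quartile scaling, 0.074 with limma-voom). With a library left out, the medians ran from -0.43 to -0.32 for mitosis, -0.24 to -0.13 for chemokines, -0.085 to -0.038 for NF-kB genes, 0.043 to 0.081 for N-glycan genes, -0.011 to 0.14 for the TXNIP group, -0.079 to 0.0039 for pentose phosphate genes and -0.018 to 0.10 for proteasome subunits. Members past the threshold, counted this way after the data were seen, numbered 8 to 20 for DNA replication, 3 to 6 for chemokines, 2 to 6 for NF-kB genes, 3 to 9 for sterol synthesis, 6 to 12 for interferon-stimulated genes and 3 to 9 for ATF4 and CHOP regulators. Of 295 named genes 125 passed the unadjusted threshold, 75 of these did so under every alternative, and 0 had a called direction reversed. Many of these genes were named by their difference or p in these same libraries, which the alternatives reuse. The numbers are therefore no independent measure of how firm the results are. Genes under about 1 FPKM rest on few reads, so differences there were least detectable.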

Other observations

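Gene groups not described so far held few members past the threshold, some at shares close to the 2.75% higher and 4.13% lower among all genes, so the members below are given as single genes. Among 29 autophagy genes 2 (6.9%) were higher at 20 than at 10 mM and 0 lower (limma, p under 0.05 before adjustment). MAP1LC3B, the LC3B protein that coats autophagosomes, was at 22.2, 20.1 and 24.1 FPKM without 2-DG, 39.5, 41.1 and 41.3 FPKM at 10 mM and 50.1, 48.2 and 43.8 FPKM at 20 mM, and its second step was 0.21 ± 0.07. GABARAPL1, of the same family, was at 21.9, 21.6 and 18.4 FPKM at 10 mM and 26.1, 24 and 22.8 FPKM at 20 mM, a difference of 0.23 ± 0.08. SQSTM1, the cargo receptor p62, differed by 0.05 ± 0.07 after a first step of 0.54 ± 0.07. Among 37 lysosomal genes 1 (2.7%) was higher and 1 (2.7%) lower, which is no excess over all genes. CTSL, cathepsin L, was higher, by 0.21 ± 0.07, and LIPA, the acid lipase, lower, by -0.28 ± 0.07.

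ANKRD1, a target of YAP, was at 194, 206 and 225 FPKM without 2-DG, 92.2, 92 and 114 FPKM at 10 mM and 63.5, 76.4 and 71.2 FPKM at 20 mM, with a second step of -0.49 ± 0.10 (adjusted p = 0.254, limma), and it was the only lower member (5.56%) among 18 YAP-TEAD targets. GADD45A, a growth arrest gene, was the only higher one, at 45.6, 47.9 and 46 FPKM at 10 mM and 60, 54.9 and 53.7 FPKM at 20 mM, a difference of 0.27 ± 0.06. Among 14 snoRNA host genes 2 were higher and 0 lower, GAS5 by 0.24 ± 0.09 and SNHG17 by 0.20 ± 0.07. Among 23 collagen chains COL6A2 was higher (4.35%), by 0.22 ± 0.07, and COL9A2 and COL13A1 were lower (8.7%), COL9A2 by -0.46 ± 0.11. Among 16 of 37 replication-dependent histones that were tested 3 were higher and 0 lower, with H2BC11 by 0.49 ± 0.12.

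Of 78 cytosolic ribosomal protein genes 0 were higher and 1 lower, of 37 ribosome biogenesis factors 3 and 1, of 26 hypoxia-inducible genes 3 and 0, and of 18 ERK feedback genes 1 and 1. Heat shock proteins (20 tested), mitochondrial chaperones and proteases (14), the BCL2 family (16), integrins and laminins (23) and metallothioneins (6) had 0 higher and 0 lower.

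The 14 lactate-responsive genes that the study picked from libraries of this experiment were also read between the doses, and as a chosen list they are no independent evidence. 4 (28.6%, against 2.75% of all genes) were higher at 20 than at 10 mM and 2 (14.3%, against 4.13%) lower. OLAH, a thioesterase of fatty acid synthesis, was at 0.0844, 0.105 and 0.0375 FPKM without 2-DG, 0.817, 0.766 and 0.661 FPKM at 10 mM and 1.33, 1.94 and 1.63 FPKM at 20 mM, with steps of 0.70 ± 0.09 and 0.59 ± 0.09 (adjusted p = 0.11, limma) that did not differ from each other past the threshold (limma adjusted p = 0.752). CDH15, a cadherin, lay under 0.5 FPKM in every library, at 0.214, 0.19 and 0.238 FPKM at 10 mM and 0.459, 0.411 and 0.443 FPKM at 20 mM, a difference of 0.24 ± 0.04. EBI3, a cytokine subunit, was at 0.498, 0.546 and 0.718 FPKM at 10 mM and 0.231, 0.22 and 0.337 FPKM at 20 mM, a difference of -0.33 ± 0.07.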
